A study of Mus musculus with 2 samples.

Results

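This account covers 9 heat shock and chaperone genes in wild-type and *Lin28a* knockout mouse embryonic stem (ES) cells profiled by single-cell RNA-seq. The members were chosen by gene symbol, from the cytosolic HSP90 pair *Hsp90aa1* and *Hsp90ab1*, the HSP70 family members *Hspa8*, *Hspa5* and *Hspa9*, the mitochondrial chaperonin pair *Hspd1* and *Hspe1*, the nucleotide exchange factor *Hsph1* and the J protein *Dnaja1*. All 9 of 9 were found among the 54146 genes of the count tables, and all 9 had UMIs in both libraries. Each genotype was 1 inDrop library, a droplet method that labels the RNA of each cell with a barcode and each molecule with a unique molecular identifier (UMI). Both cultures were ES cells described as derived from the inner cell mass, untreated apart from the gene deletion, and kept for 2 days in LIF/2i medium on gelatin-coated plates with mouse embryonic fibroblast feeders. Each genotype was also 1 clone from CRISPR/Cas9 editing with a guide against the second exon of *Lin28a*, so clone, culture, library and genotype cannot be told apart.

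Chaperones bind proteins that are unfolded or partly folded and help them to reach or keep their active form. HSP70 proteins hold short hydrophobic stretches of a client in cycles of ATP binding and hydrolysis, J proteins such as DNAJA1 deliver clients and start the hydrolysis, and exchange factors such as HSPH1 reset the cycle. HSP90 dimers act later on clients such as kinases and steroid receptors, HSPA5 (BiP) does the HSP70 work in the endoplasmic reticulum (ER), and in mitochondria HSPA9 (mortalin) pulls in and folds imported proteins while the HSPD1 barrel with its HSPE1 lid folds them in an enclosed chamber. Under heat or proteotoxic stress the transcription factor HSF1 raises many of these genes through heat shock elements, and stress in the ER raises *Hspa5* through the unfolded protein response. In pluripotent cells several of them are abundant without stress.

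After keeping barcodes with at least 500 UMIs and at most 20% of UMIs on mitochondrial genes, 1856 wild-type and 1622 knockout cells remained, with 11639256 and 9340855 UMIs and a median depth of 6140 and 5063.5 UMIs per cell. The files number their barcodes, so barcodes shared by the libraries were not counted. The 8 ES cell markers summed to 4274 and 4429 counts scaled to 1000000 UMIs of a library (CPM), with *Pou5f1* at 838 CPM in wild-type and 1014 CPM in knockout cells. Feeder fibroblast markers summed to 2136 and 1259.7 CPM, and 50 wild-type and 27 knockout cells held at least 0.2% of their UMIs on *Col1a1*, *Col1a2* and *Col3a1*. Of this sum *Fn1*, *Sparc* and *Vim* held 423, 554 and 391 CPM in wild-type and 382, 359 and 256 CPM in knockout cells. Their medians over cells were above 0 in both libraries, so the sum does not measure feeder cells alone. Primitive endoderm markers summed to 13.1 CPM in both libraries, and *Lin28a* itself was at 107 CPM in wild-type and 36.6 CPM in knockout cells, in counts from the 3′ end that do not read the edited exon. With 1 library per genotype no test between genotypes could be made, and all intervals are exact 95% intervals that cover counting error only.

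The 9 genes together took 1.45% of all UMIs in wild-type and 1.26% in knockout cells, or 14492 CPM (14423 to 14562) and 12599 CPM (12527 to 12672). The ratio of knockout over wild-type was 0.869 (0.863 to 0.876). The HSP90 pair held most of it, with *Hsp90ab1* at 38.9% and *Hsp90aa1* at 33.3% of the members' UMIs in wild-type cells and at 41.5% and 27.8% in knockout cells. Levels of different genes are compared here as counts of molecules, without scaling by length, since UMIs were counted from the 3′ end of the transcript.

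*Hsp90aa1* (ENSMUSG00000021270, GRCm38 chromosome 12 from 110690605 to 110702728, minus strand) encodes the HSP90 form that is raised by stress in most tissues. It stood at 4825 CPM (4785 to 4865) in wild-type and 3504.5 CPM (3467 to 3543) in knockout cells, a ratio of 0.726 (0.716 to 0.736). This was the lowest ratio among the 9 genes, with an interval that overlapped those of *Dnaja1* and *Hspd1*. *Hsp90ab1* (ENSMUSG00000023944, chromosome 17 from 45567775 to 45573271, minus strand), the form usually called constitutive, stood at 5639.5 CPM (5596 to 5683) and 5232.5 CPM (5186 to 5279), a ratio of 0.928 (0.917 to 0.939). Both forms were thus lower in knockout cells, by different amounts. The number of *Hsp90ab1* UMIs for each *Hsp90aa1* UMI was 1.17 (1.16 to 1.18) in wild-type and 1.49 (1.47 to 1.51) in knockout cells. With the pseudogene copies described below added, *Hsp90aa1* stood above *Hsp90ab1* in wild-type cells. Almost every cell held a UMI of each, 98.9% of wild-type cells for both genes and 97.7% and 99.2% of knockout cells for *Hsp90aa1* and *Hsp90ab1*.

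*Hspa8* (ENSMUSG00000015656, chromosome 9 from 40800984 to 40810087, plus strand) encodes HSC70, the constitutive HSP70 of the cytosol. It was at 1434 CPM (1413 to 1456) in wild-type and 1623 CPM (1597 to 1649) in knockout cells. Its ratio of 1.13 (1.11 to 1.16) was the only one of the 9 whose interval lay above 1. Its J protein partner was lower. *Dnaja1* (ENSMUSG00000028410, chromosome 4 from 40722150 to 40737149, plus strand) was at 309 CPM (299 to 319) and 226 CPM (217 to 236), a ratio of 0.732 (0.694 to 0.773). *Hsph1* (ENSMUSG00000029657, chromosome 5 from 149614287 to 149636376, minus strand), the exchange factor HSP110, was the least abundant member at 113 CPM (107 to 119) and 104 CPM (97.7 to 111), and the interval of its ratio, 0.923 (0.848 to 1.003), included 1. For each *Dnaja1* UMI there were 4.65 (4.48 to 4.82) *Hspa8* UMIs in wild-type and 7.18 (6.86 to 7.52) in knockout cells.

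*Hspa5* (ENSMUSG00000026864, chromosome 2 from 34771970 to 34777547, plus strand) was at 321 CPM (311 to 332) in wild-type and 259 CPM (249 to 269) in knockout cells, a ratio of 0.805 (0.764 to 0.847). *Hspd1* (ENSMUSG00000025980, chromosome 1 from 55077835 to 55088243, minus strand) and *Hspe1* (ENSMUSG00000073676, chromosome 1 from 55088132 to 55091307, plus strand) lie head to head with overlapping annotated starts and encode the barrel and the lid of one chaperonin. *Hspd1* was at 608 CPM (594 to 623) and 464 CPM (451 to 478), a ratio of 0.763 (0.735 to 0.793), and *Hspe1* at 819 CPM (803 to 836) and 751 CPM (733 to 769), a ratio of 0.917 (0.889 to 0.946). The 2 genes of this shared region therefore differed in their ratio, with 1.35 (1.31 to 1.39) *Hspe1* UMIs for each *Hspd1* UMI in wild-type and 1.62 (1.56 to 1.68) in knockout cells.

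Short windows of the promoters are shown because the stress elements named above can be read in them. RefSeq promoters (GRCm38.p6, from 250 bases before to 50 bases after an annotated start) were at hand for 5 of the 9 genes, *Hspa5*, *Hspd1*, *Hspe1*, *Hsph1* and *Dnaja1*. They were searched on both strands for a heat shock element of 3 units, TTCNNGAANNTTC, for the 2-unit core GAANNTTC, which also lies inside the longer motif, and for the ER stress element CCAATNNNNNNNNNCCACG. The fixed letters of each motif are in capitals. Distances are counted from the RefSeq start of the promoter searched, which for *Dnaja1* is 1 of 3. The *Dnaja1* and *Hspa5* windows lie past the gene starts given with the gene coordinates, which come from another annotation.
*Hspe1*, chr1:55088051-55088079, plus strand, 89 bases before the start: acggtccgTTCtaGAAccTTCcggaaggc
*Hsph1*, chr5:149636280-149636308, minus strand, 15 bases past 1 of its starts: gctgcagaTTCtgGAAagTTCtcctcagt
*Dnaja1*, chr4:40722333-40722362, plus strand, 124 bases before the start: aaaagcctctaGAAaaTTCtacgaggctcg
*Hspa5*, chr2:34772020-34772048, plus strand, 65 bases before the start: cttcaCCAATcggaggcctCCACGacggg
The *Hspe1* window lies in the shared region and is also in an *Hspd1* promoter, on its other strand. The 3-unit element was held by 0.603% of all 32851 promoters of this length, the core by 7.86% and the ER stress element by 0.119%. Of the 9 promoters of these 5 genes, 4 held the 3-unit element, 5 the core and 1 the ER stress element. These promoters overlap. *Hspd1* and *Hspe1* were both counted for the shared region, and the 2 promoters of *Hsph1* were both counted for the window shown. The counts of promoters are therefore larger than the counts of separate sites, and are not independent. A match describes the letters in the window and shows no binding.

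*Hspa9* (ENSMUSG00000024359, chromosome 18 from 34937414 to 34954357, minus strand) was at 423 CPM (411 to 435) in wild-type and 435 CPM (422 to 448) in knockout cells. Its ratio was 1.03 (0.987 to 1.07), with an interval that included 1. Among the 3 mitochondrial members the order of the ratios was thus *Hspd1*, *Hspe1* and *Hspa9*, and their intervals did not overlap.

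**Figure D1:**
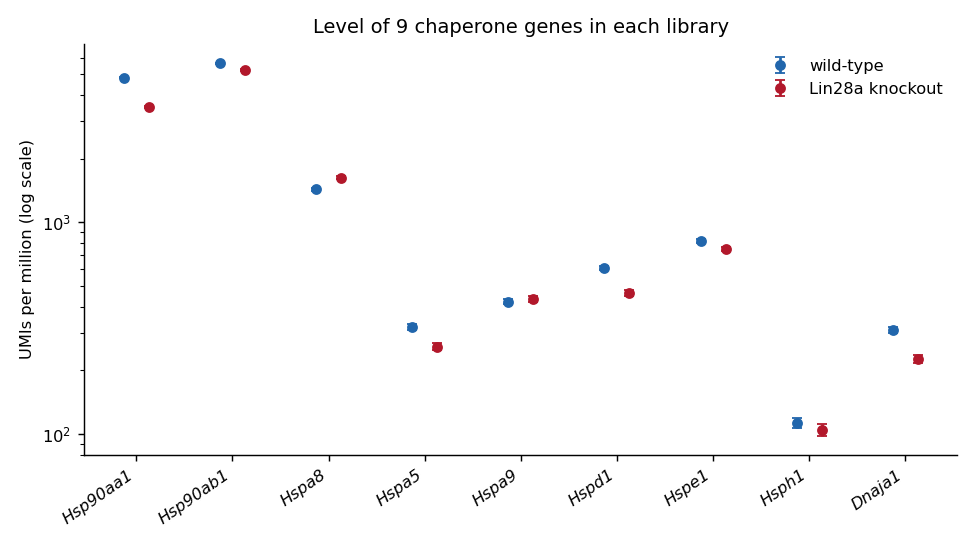
CPM (log scale) of the 9 chaperone genes in the wild-type (blue) and *Lin28a* knockout (red) library, 1 point per library with its exact 95% Poisson interval. *Hsp90aa1* was at 4825 against 3504.5 CPM, and *Hspa8* was higher in knockout cells at 1623 against 1434 CPM.

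None of the 9 genes differed by 1.5-fold between the libraries when UMIs were summed. A gene was called when its ratio, with 0.5 added to each count, was past 1.5-fold, among the 9835 genes with at least 200 UMIs over both libraries. All 9 members passed this minimum, 0 of them were called higher and 0 lower, beside 6.49% of all genes higher and 8.45% lower. Past a difference of 0.32 on the log2 scale, 3 members were lower (*Hsp90aa1*, *Dnaja1* and *Hspd1*) and 0 higher, beside 20.8% and 19.7% of all genes. The median ratio was 0.917 over the members and 1.014 over all genes. Weighting every cell equally took 2 members past 1.5-fold, *Hspd1* at 0.654 and *Dnaja1* at 0.662, both lower, beside 11.5% of all genes lower and 10.4% higher in that setting.

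Several members have copies of similar sequence in the genome that were counted as genes of their own. Annotated pseudogenes were matched to the members' transcripts by sequence, with at least 90% identity over at least 200 bases, and 33 of them had UMIs. For *Hspa8* the 11 copies held 18477 wild-type and 19335 knockout UMIs, 111% and 128% of the count of the gene itself. The copy *Gm8355* alone, 98.7% identical over 1941 bases and located on chromosome 10 from 14745362 to 14747302, stood at 857 and 1129 CPM. With the copies added *Hspa8* was at 3022 CPM in wild-type and 3693 CPM in knockout cells, a ratio of 1.22 (1.20 to 1.24) in place of 1.13. The 5 copies of *Hsp90aa1* held 26.3% and 27.9% of the count of the gene, and its ratio with them was 0.736 (0.727 to 0.745). With copies added to both HSP90 genes, *Hsp90aa1* was at 6092 and *Hsp90ab1* at 5851 CPM in wild-type cells, so their order turned. In knockout cells they were at 4482 and 5484 CPM.

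Copies of the chaperonin barrel moved more than the gene. *Hspd1-ps3*, 99.0% identical to *Hspd1* over 1722 bases and located on chromosome 11 from 41498737 to 41500458, was at 232 CPM in wild-type and 78.9 CPM in knockout cells. The 6 *Hspd1* copies together held 42.2% of the count of *Hspd1* in wild-type and 19.7% in knockout cells, a ratio of 0.357 (0.330 to 0.385) beside 0.763 for the gene. With the copies added *Hspd1* went from 865 to 556 CPM, a ratio of 0.642 (0.621 to 0.664) that is past 1.5-fold. *Hspe1* with its copies was at 894 and 844 CPM, so in wild-type cells it stood closer to *Hspd1* than without copies. The 3 copies of *Dnaja1* held 44.5% and 54.9% of its count and brought its ratio to 0.785 (0.751 to 0.820), and those of *Hsp90ab1*, *Hspe1* and *Hspa9* held between 1.40% and 12.4%. Neither *Hspa5* nor *Hsph1* had a copy by this rule. The study followed a published pipeline (Zilionis et al.), and how it divided or dropped reads shared by a gene and its copies is not given in the sources used here. The levels of *Hspa8*, *Hspd1*, *Dnaja1* and *Hsp90aa1* are therefore uncertain, by an amount these shares need not limit. Reads misplaced between gene and copy and transcripts of the copies themselves cannot be told apart. Only 5 of 172878 wild-type and 3 of 124430 knockout UMIs of the members, over all barcodes, were counted as ambiguous between genes in the files.

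**Figure D2:**
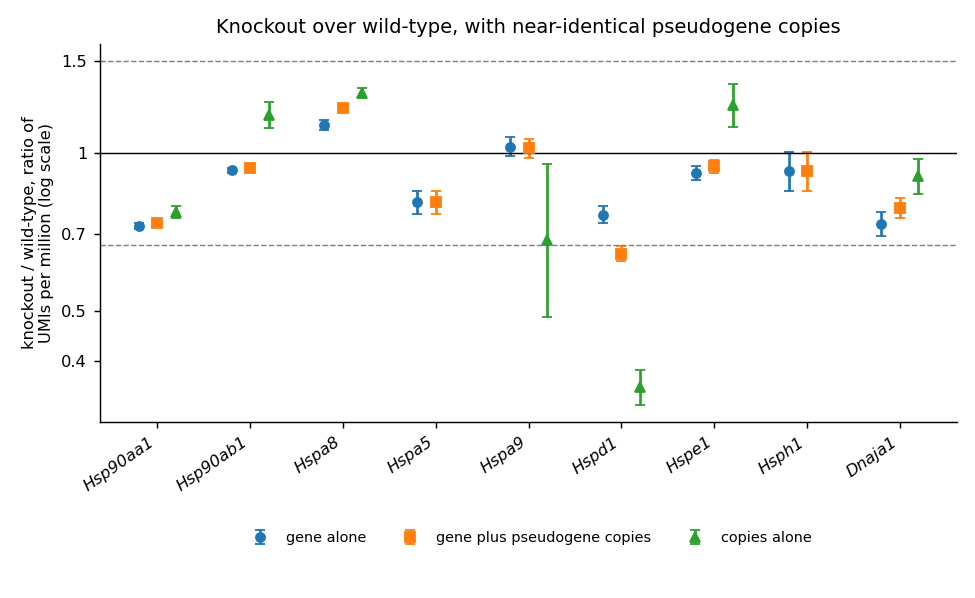
Ratio of CPM, knockout over wild-type (log scale), for each gene alone (circles), for the gene plus its pseudogene copies (squares) and for the copies alone (triangles), with exact 95% intervals. The dashed lines mark 1.5-fold in each direction. Copies of *Hspd1* sit at 0.357 and those of *Hspa8* at 1.30, further from 1 than the genes.

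Cells differed in the share of their UMIs on ribosomal protein (RP) genes, here 87 genes, and all members but *Hspe1* were on the same side of 1 in both libraries when cells of high and middle RP share were compared. There were 91 wild-type and 233 knockout cells under 5% RP, 932 and 439 at 5 to 10%, 607 and 595 at 10 to 15%, and 226 and 355 at 15% or more. Between cells of at least 15% RP and cells of 5 to 10% RP, *Hspa8* was 1.78-fold higher (1.71 to 1.85) in wild-type and 1.81-fold higher (1.74 to 1.88) in knockout cells, going from 1238 to 2203 CPM and from 1296 to 2343 CPM. *Hsp90ab1* followed at 1.53-fold (1.498 to 1.56) and 1.63-fold (1.60 to 1.67), from 5036 to 7700.2 CPM and from 4358 to 7114 CPM. These are the constitutive HSP70 and HSP90 of the cytosol.

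The other HSP70 system members and the mitochondrial barrel went the other way. *Hsph1* was at 0.380 (0.300 to 0.475) of its level in wild-type and 0.301 (0.236 to 0.380) in knockout cells. *Hspd1* was at 0.434 (0.395 to 0.475) and 0.372 (0.335 to 0.411), from 697 to 302 CPM and from 589 to 219 CPM. *Hspa5* was at 0.511 (0.453 to 0.574) and 0.362 (0.314 to 0.416), *Hspa9* at 0.512 (0.461 to 0.566) and 0.503 (0.457 to 0.553), and *Dnaja1* at 0.503 (0.445 to 0.567) and 0.530 (0.464 to 0.605). *Hsp90aa1* changed little, at 0.872 (0.851 to 0.895) and 0.900 (0.874 to 0.927). The lid *Hspe1* did not follow its barrel, at 1.07 (1.005 to 1.13) in wild-type and 0.778 (0.728 to 0.832) in knockout cells.

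In counts, 2 members were past 1.5-fold higher and 5 lower in each library, beside 23.6% of genes higher and 44.5% lower in wild-type and 27.6% and 40.6% in knockout cells. Large shares of all genes were thus past this limit along RP share, and the counts of members are no more than a description of which of them were on which side. RP genes fill part of every cell's UMIs, so the ratios were also taken over UMIs outside RP and mitochondrial genes. *Hspa8* was then at 1.94 and 1.95, *Hsp90ab1* at 1.67 and 1.76, *Hspd1* at 0.472 and 0.4002, and *Hsph1* at 0.414 and 0.325, on the same sides of 1. The copies went with their genes for *Hspa8*, at 1.96 and 2.14, and for *Hspd1*, at 0.435 and 0.463, while those of *Hsp90aa1* stood at 1.05 and 1.33 where the gene stood below 1, and gene and copies together stood at 0.907 (0.887 to 0.928) and 0.980 (0.955 to 1.006). The summed members rested on the HSP90 pair and *Hspa8* and were at 1.14 (1.13 to 1.16) and 1.19 (1.17 to 1.20).

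**Figure D3:**
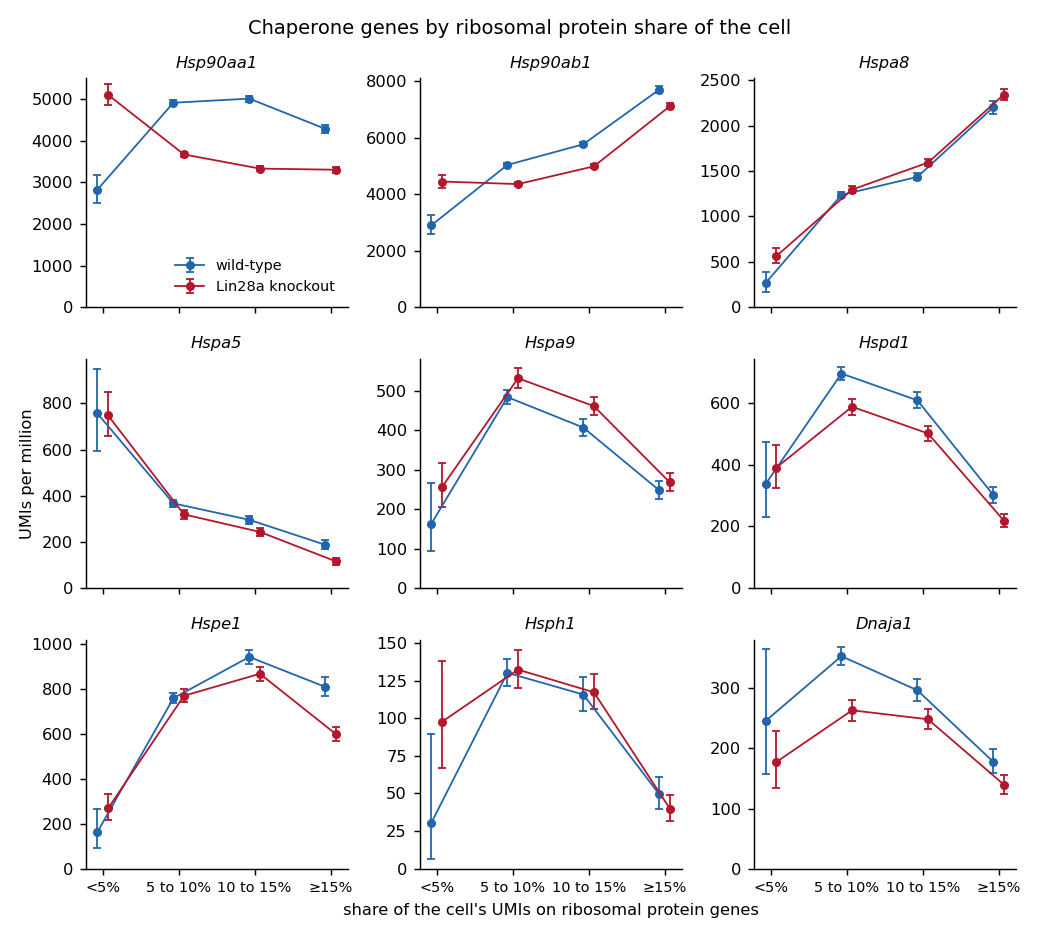
CPM of each chaperone gene in cells grouped by the share of their UMIs on ribosomal protein genes, wild-type in blue and knockout in red, with exact 95% Poisson intervals. *Hspa8* and *Hsp90ab1* are highest in the bin of at least 15% in both libraries, *Hspd1*, *Hsph1*, *Hspa9* and *Dnaja1* are highest at 5 to 10%, and *Hspa5* is highest under 5%.

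Cells under 5% RP were shallow, at a median depth of 830 UMIs for wild-type and 1214 UMIs for knockout, and had a median mitochondrial share of 4.32% and 5.98%. In them *Hspa5* was at 757 CPM (594 to 950) and 748 CPM (657 to 848), against 318 and 241 CPM in the other cells, a ratio of 2.38 (1.87 to 2.996) and 3.10 (2.71 to 3.54). The sum of the feeder markers was higher in the same cells. The 12 feeder markers summed to 11431 CPM under 5% RP and 2057 CPM in the other wild-type cells, with *Lum* at 0 under 5%, and to 2537 and 1213 CPM in knockout cells with 0 markers at 0. Feeder collagen cells were 9 of 91 against 41 of 1765 wild-type and 13 of 233 against 14 of 1389 knockout cells. With them left out the ratio of *Hspa5* was 2.39 (1.80 to 3.12) and 3.16 (2.75 to 3.62). *Hspa8* was lower, at 0.184 (0.120 to 0.270) and 0.338 (0.291 to 0.391), and with its copies added at 0.289 (0.231 to 0.357) and 0.420 (0.384 to 0.458). *Hsp90ab1* was at 0.513 (0.455 to 0.576) and 0.846 (0.802 to 0.891), and *Hspd1* at 0.552 (0.380 to 0.777) and 0.837 (0.696 to 0.998). With its copies added *Hspd1* was at 0.648 (0.488 to 0.844) and 1.07 (0.926 to 1.24), so its knockout value turned to an interval that included 1, and no direction is drawn from it. Also lower were *Hspe1* at 0.198 (0.113 to 0.322) and 0.3497 (0.280 to 0.431) and *Hspa9* at 0.385 (0.220 to 0.626) and 0.581 (0.462 to 0.721). *Hsph1* at 0.270 (0.0556 to 0.791), from 3 wild-type UMIs under 5% RP, and 0.936 (0.636 to 1.33) and *Dnaja1* at 0.794 (0.508 to 1.18) and 0.777 (0.588 to 1.009) had an interval that included 1 in at least 1 library, although with its copies added *Dnaja1* was at 0.870 (0.615 to 1.20) and 0.708 (0.561 to 0.881). In both libraries *Hspa5* was thus above 1 where *Hspa8*, *Hsp90ab1*, *Hspe1* and *Hspa9* were below it, also with copies added. One member was called higher in each library, beside 27.2% of all genes in wild-type and 29% in knockout cells. Lower calls numbered 7 members in wild-type and 3 in knockout cells, beside 42.3% of genes in each. Other ER chaperones and genes of the unfolded protein response, listed below, lay on both sides. Past 1.5-fold, 7 of 25 were higher and 7 lower in wild-type cells, and 5 of 20 higher and 4 lower in knockout cells.

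Of the members, only *Hsp90aa1* had a ratio of low RP over other cells on opposite sides of 1 in the libraries, with both intervals apart from 1. It was at 2822 CPM (2499 to 3175) under 5% RP and 4842 CPM in the other wild-type cells, a ratio of 0.583 (0.516 to 0.656), and at 5096 CPM (4854 to 5347) and 3447 CPM in knockout cells, a ratio of 1.48 (1.41 to 1.55). The knockout level under 5% RP was therefore 1.81-fold (1.59 to 2.06) that of the wild-type, while in the bins of 5 to 10%, 10 to 15% and at least 15% RP it was 0.747 (0.732 to 0.763), 0.665 (0.649 to 0.680) and 0.771 (0.746 to 0.796). *Hsp90aa1* was not alone in this. Under 5% RP the knockout level was also 1.53-fold (1.35 to 1.75) that of the wild-type for *Hsp90ab1*, against 0.866, 0.865 and 0.924 in the other bins, and 2.11-fold (1.40 to 3.32) for *Hspa8*, against 1.05, 1.11 and 1.06. The summed members were at 1.57 (1.45 to 1.70), against 0.854, 0.830 and 0.886. *Hspa5* was at 0.989 (0.759 to 1.30), and for the 5 remaining members, between 0.722 and 3.19, the intervals included 1. Only 7 wild-type and 45 knockout cells under 5% RP held at least 2000 UMIs, and 5 of those 7 were cells with feeder collagens. Among these deeper cells the knockout level was 2.15-fold (1.83 to 2.55) that of the wild-type for the summed members, 4.69-fold (3.26 to 7.01) for *Hsp90aa1*, 1.504-fold (1.19 to 1.92) for *Hsp90ab1*, 2.91-fold (1.28 to 8.17) for *Hspa8* and 6.69-fold (1.77 to 56.4) for *Hspd1*, the last on 2 wild-type UMIs. The copies of *Hsp90aa1* did not show the opposite sides, at 1.10 (0.921 to 1.30) in wild-type and 2.24 (2.07 to 2.42) in knockout cells, and gene and copies together were at 0.690 (0.624 to 0.760) and 1.64 (1.57 to 1.71). Without feeder collagen cells the gene was at 0.695 (0.613 to 0.785) and 1.53 (1.46 to 1.61). Counting error is the only error these intervals hold, and the difference between the libraries was not tested. How many of all genes lie on opposite sides in this way was not counted.

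Mitochondrial share ran against RP share over cells (Pearson r = -0.745 and Spearman rho = -0.746 over 1234 wild-type cells, -0.767 and -0.807 over 821 knockout cells of at least 5000 UMIs), so the bins of one partly repeat those of the other. In cells with at least 2% of UMIs on mitochondrial genes, compared with cells under 1%, *Hsph1* was 1.53-fold higher (1.31 to 1.79) in wild-type and 2.21-fold higher (1.84 to 2.66) in knockout cells. *Hspa5* stood at 1.31 (1.20 to 1.44) and 2.17 (1.94 to 2.44), *Hspd1* at 1.36 (1.27 to 1.46) and 1.87 (1.72 to 2.04), *Dnaja1* at 1.40 (1.28 to 1.54) and 1.58 (1.41 to 1.77), and *Hspa9* at 1.31 (1.21 to 1.42) and 1.54 (1.42 to 1.67). *Hspa8* was lower at 0.687 (0.657 to 0.717) and 0.562 (0.541 to 0.584), and so was *Hsp90ab1* at 0.742 (0.726 to 0.758) and 0.643 (0.629 to 0.656). *Hsp90aa1* was near its level, at 1.03 (1.007 to 1.06) and 1.10 (1.07 to 1.13), and with its copies added at 1.005 (0.984 to 1.03) and 1.03 (1.004 to 1.05).

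Past 1.5-fold, 1 member was higher and 0 lower in wild-type cells, beside 28.3% and 21.7% of genes. In the knockout library 5 were higher and 2 lower, beside 37.9% and 25.6%. When only cells of 5 to 15% RP were compared, the ratios of *Hsph1*, *Hspd1* and *Hspa5* came closer to 1. *Hsph1* was then at 1.17 (0.991 to 1.38) and 1.17 (0.922 to 1.502), *Hspd1* at 1.07 (0.997 to 1.15) and 1.16 (1.04 to 1.31) and *Hspa5* at 1.02 (0.922 to 1.13) and 1.19 (1.01 to 1.41). *Dnaja1* and *Hspa9* also came closer to 1. *Dnaja1* stayed above 1 in both libraries, at 1.18 (1.06 to 1.31) and 1.22 (1.03 to 1.45). *Hspa9* was at 1.11 (1.01 to 1.21) and 1.11 (0.988 to 1.249), with a knockout interval that included 1. *Hspa8* stayed below 1 at 0.878 (0.834 to 0.924) and 0.745 (0.701 to 0.793), as did *Hsp90ab1* at 0.849 (0.829 to 0.871) and 0.756 (0.731 to 0.782). *Hspe1* had stood at 0.812 (0.766 to 0.861) and 1.11 (1.05 to 1.18) over all RP shares. In this range it was at 0.786 (0.737 to 0.838) and 0.918 (0.842 to 1.003), with a knockout interval that included 1. Even in this range the median RP share was 8.40% against 11.4% in wild-type and 9.22% against 13.1% in knockout cells.

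**Figure D4:**
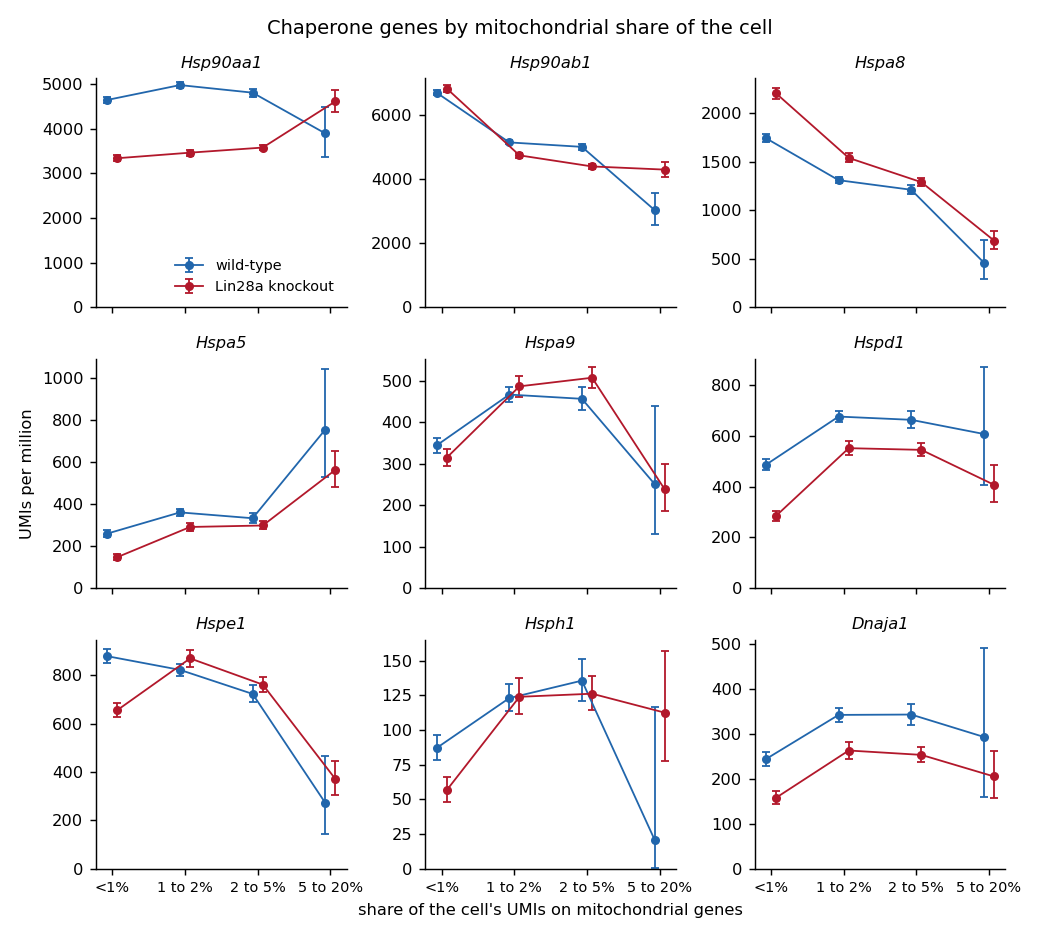
CPM of each chaperone gene in cells grouped by the share of their UMIs on mitochondrial genes, wild-type in blue and knockout in red, with exact 95% Poisson intervals. *Hspa8* and *Hsp90ab1* are highest in cells under 1% in both libraries, where *Hspa5*, *Hspd1* and *Dnaja1* lie below their 1 to 2% values.

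Depth moved with the comparison of the libraries. Cells under 2000 UMIs made up 11.5% of wild-type and 31.6% of knockout cells. In cells of 500 to 2000 UMIs the ratio of knockout over wild-type was 0.534 (0.418 to 0.683) for *Hspd1* and 0.589 (0.408 to 0.857) for *Dnaja1*, and in cells of at least 10000 UMIs it was 0.922 (0.861 to 0.987) and 0.840 (0.761 to 0.927). Both genes were closest to their wild-type level in the deepest cells. For *Hspa8* the ratio was 1.19, 1.21, 1.23 and 1.02 from the shallowest to the deepest of 4 depth bins, and for *Hsp90aa1* it was 0.979, 0.706, 0.701 and 0.807. The part of depth in the difference between the libraries was not tested.

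Over single cells, the share with at least 1 UMI followed level and depth. *Hspd1* was seen in 87.8% of wild-type (86.2 to 89.3) and 66.6% of knockout (64.2 to 68.9) cells, and taken at 500 UMIs per cell it would be seen in 26.0% and 17.9%. At 500 UMIs *Hsp90aa1* would be seen in 88.5% and 81.3% of cells, *Hspa8* in 47.9% and 52.1%, *Hspe1* in 31.7% and 26.8%, *Hspa9* in 18.6% and 17.5%, *Hspa5* in 15.6% and 13.5%, *Dnaja1* in 14.0% and 9.50% and *Hsph1* in 5.39% and 4.95%. All cell types use these genes, so no cells that should lack them were at hand to measure free RNA. Each cell of at least 2000 UMIs was then thinned to 2000 UMIs, which left out 214 wild-type and 512 knockout cells. *Hsp90aa1* had a median of 10 UMIs (range 0 to 32) in 1642 wild-type and 7 UMIs (0 to 23) in 1110 knockout cells. Its variance over mean, the Fano factor, was 1.84 and 1.91, above 94.7% and 90.8% of the genes with a mean of at least 0.5 UMIs, whose medians were 1.14 and 1.21. *Hsp90ab1* had 1.48 and 1.88, *Hspa8* 1.35 and 1.62 and *Hspa5* 1.29 and 1.34. *Hspe1* at 1.14 and 1.11 and *Hspa9* at 1.09 and 1.12 were near or below the median gene. These members differ in level, with a mean of 11.34 and 10.92 UMIs for *Hsp90ab1* beside 0.647 and 0.517 for *Hspa5*. Genes of like mean were not compared, so the Fano factors do not show which members vary most over cells.

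Correlations between members over cells were low. Several members had few UMIs per cell, such as *Hspa9* with a mean of 0.828 (wild-type) and 0.868 (knockout) in cells thinned to 2000 UMIs. Counting noise lowers r at such levels, and pairs of other genes of like level were not compared. Low values therefore do not show that members vary apart. In cells thinned to 5000 UMIs, on log2(count + 1), the 36 pairs had a median Pearson correlation of 0.068 over 1234 wild-type and 0.072 over 821 knockout cells, all from the same library and at the same depth. The highest pair in both libraries was *Hsp90ab1* with *Hspa8* (r = 0.275 and 0.296, rho = 0.234 and 0.300). The lowest was *Hspa8* with *Hspa9* in the wild-type (r = -0.142, rho = -0.143) and *Hsp90ab1* with *Hspd1* in knockout cells (r = -0.264, rho = -0.265). The barrel and lid genes *Hspd1* and *Hspe1* had r = 0.067 and 0.188 (rho = 0.065 and 0.178). The correlations with RP share were 0.539 and 0.622 for *Hsp90ab1*, 0.408 and 0.455 for *Hspa8* and -0.365 and -0.457 for *Hspd1* (rho = 0.504 and 0.596, 0.370 and 0.463, and -0.310 and -0.395). For *Hspa9*, *Hspa5*, *Dnaja1* and *Hsph1* r with RP share lay between -0.360 and -0.192. *Hspe1* had 0.100 and -0.219 and *Hsp90aa1* -0.045 and -0.113, where *Hsp90aa1* had 0.251 with *Hsp90ab1* (rho = 0.060) and 0.228 with *Hspd1* (rho = 0.155) in wild-type cells. By the same measure, among 1644 genes outside the chaperone lists, those most like the summed members were *Rps2-ps13* (mean r over the libraries 0.480), *Gm12346* (0.422), *Rps2-ps6* (0.411), *Dppa5a* (0.385) and *Gm6311* (0.385), where the median gene had 0.037. *Gm12346* is itself a copy of *Hsp90aa1*, 99.5% identical over 2255 bases. By their names *Rps2-ps13* and *Rps2-ps6* are pseudogenes of the RP gene *Rps2*, and the RP set of protein-coding genes leaves them out. The summed members had r = 0.277 and 0.341 with RP share itself (rho = 0.273 and 0.325).

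The wider chaperone network, 6 lists of 124 genes, had ratios on both sides of 1. At least 200 UMIs were reached by 113 of them, of which 2 were past 1.5-fold higher and 7 lower, beside the 6.49% and 8.45% of all genes given above. Past 0.32 on the log2 scale 12 were higher and 32 lower, beside 19.7% and 20.8%. Their median ratio was 0.958. Among heat shock factors and inducible genes 0 of 17 were higher and 3 lower, with a median of 0.944. The highest were *Dnajb1*, an inducible J protein of HSP70, at 41.7 CPM in wild-type and 58.3 CPM in knockout cells (ratio 1.40, 1.24 to 1.59), and the small heat shock protein *Hspb8* at 15.8 and 21.1 CPM (1.33, 1.09 to 1.64). The inducible HSP70 genes *Hspa1a* and *Hspa1b* were nearly silent, with 26 and 81 UMIs in wild-type and 20 and 74 in knockout cells. The lowest was *Cryab*, a small heat shock protein, at 16.8 and 6.53 CPM (0.390, 0.287 to 0.522). With the feeder collagen cells left out, *Cryab* stood at 1.22 (0.746 to 1.99), and *Serpinh1*, the collagen chaperone HSP47, went from 0.477 (0.438 to 0.520) to 0.618 (0.555 to 0.686). *Serpinh1* is named here after its values were seen.

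J proteins had the lowest median, 0.824 over 19 genes, with 0 higher and 3 lower past 1.5-fold. *Dnajb14* of the ER membrane was at 293 and 415 CPM (1.42, 1.36 to 1.49), *Dnajc11* of mitochondria at 79.7 and 94.1 CPM (1.18, 1.08 to 1.30) and *Dnajc1* of the ER membrane at 31.4 and 19.7 CPM (0.626, 0.522 to 0.7499). HSP90 co-chaperones had the highest, 1.09 over 20 genes, with 1 higher and 0 lower. This was *Unc45a*, a myosin chaperone that works with HSP90, at 11.7 and 19.6 CPM (1.68, 1.34 to 2.11), followed by *Fkbp8* at 51.5 and 71.7 CPM (1.39, 1.24 to 1.56), while *Ptges3*, the p23 protein that closes the HSP90 dimer, was lowest at 656 and 471 CPM (0.717, 0.691 to 0.744). TRiC and prefoldin genes, which fold actin and tubulin, had 0 of 16 past 1.5-fold and a median of 0.898. Of them the TRiC subunit *Cct3* was at 445 and 498 CPM (1.12, 1.08 to 1.16), *Pfdn1* at 128 and 141 CPM (1.10, 1.02 to 1.19) and the prefoldin subunit *Vbp1* at 70.7 and 48.1 CPM (0.680, 0.605 to 0.764).

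ER chaperones and genes of the unfolded protein response had a median of 1.05 over 25 genes, with 1 higher and 1 lower past 1.5-fold. *Sdf2l1*, an ER protein that works with BiP, was at 28.1 and 44.0 CPM (1.57, 1.35 to 1.82) and *Hyou1*, the HSP70-like exchange factor of BiP, at 72.9 and 106 CPM (1.45, 1.32 to 1.59). BiP itself, *Hspa5*, was lower at 0.805, and so was the disulfide isomerase *Pdia3* at 100.2 and 63.1 CPM (0.629, 0.569 to 0.696). Mitochondrial chaperones and proteases had 0 of 16 past 1.5-fold and a median of 0.964. The protease *Htra2* was at 25.9 and 36.7 CPM (1.42, 1.21 to 1.66), the HSPA9 helper *Dnlz* at 12.3 and 15.5 CPM (1.26, 0.996 to 1.60) and the inner membrane protease *Yme1l1* at 97.6 and 66.7 CPM (0.683, 0.619 to 0.754).

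The lists were also compared along RP share. Between cells of at least 15% and of 5 to 10% RP, with 0.5 added to each count, *Vbp1* was at 0.0625 in wild-type and 0.0507 in knockout cells and *Ptges3* at 0.116 and 0.0895, both far below any of the 9 members. J proteins were past 1.5-fold lower in 10 of 16 and 8 of 12 genes with enough UMIs, and higher in 1 and 0, where 44.5% and 40.6% of all genes were lower and 23.6% and 27.6% higher. HSP90 co-chaperones were higher in 8 of 18 and 5 of 17 and lower in 7 and 6, and TRiC and prefoldin genes were higher in 5 and 5 and lower in 8 and 9 of 16. ER genes were higher in 3 of 19 and 1 of 13 and lower in 10 and 6, mitochondrial genes higher in 5 of 13 and 4 of 10 and lower in 4 and 3, and heat shock factors and inducible genes higher in 2 of 10 and 1 of 9 and lower in 2 and 0.

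**Figure D5:**
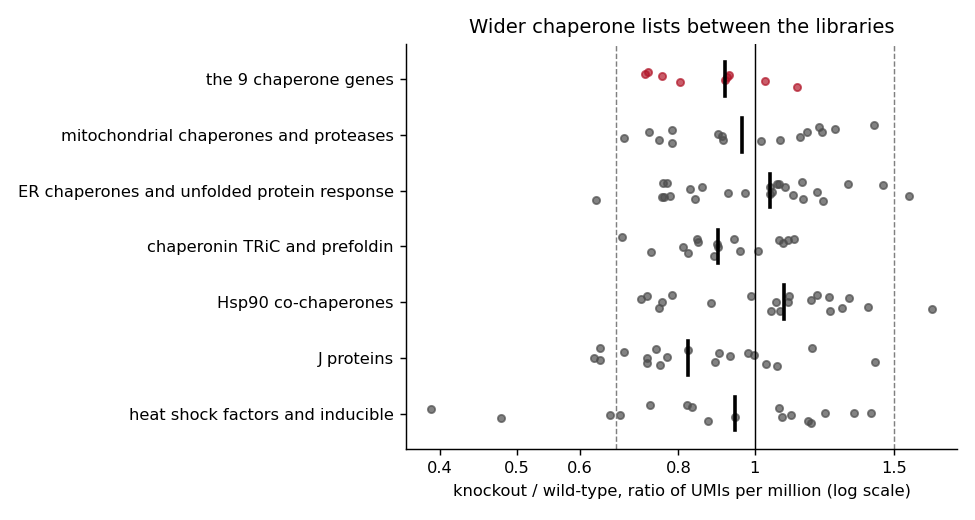
Ratio of CPM, knockout over wild-type (log scale), of every gene with at least 200 UMIs in the 6 wider lists (grey) and of the 9 chaperone genes (red), with each list's median as a black bar and dashed lines at 1.5-fold. Medians run from 0.824 for J proteins to 1.09 for HSP90 co-chaperones, and the 2 lowest points are *Cryab* and *Serpinh1*.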

How the data were processed

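Single-cell RNA-seq of 1 wild-type and 1 *Lin28a* knockout library was analysed. The authors deposited raw UMI counts per gene and numbered barcode, made with the inDrop system, without normalization. The study's methods name a published pipeline (Zilionis et al.) for the count matrices. The aligner and annotation are not given in the sources used here, and the submitters' processing notes name mm10 and Seurat 2.3.4. Identifiers were matched without version to GENCODE M21 of GRCm38 (54079 matched, 52480 with the version). The limits of 500 UMIs and 20% follow the study's methods. Counts were summed over cells and scaled to CPM, with exact Poisson intervals for levels, exact binomial (Clopper-Pearson) intervals for shares and the exact conditional interval for ratios. A called ratio was past 1.5-fold. The RP set held 87 protein-coding genes and the mitochondrial set 37. Thinning used seed 1. Copies were found with BLAST 2.17.0 among transcripts annotated as pseudogenes, a step chosen after the data were seen. Named from each wider list are its 2 highest and its lowest gene by ratio, besides the 5 genes most like the members. The members and lists were chosen with earlier results of these data known. Doublets were kept, and Scrublet marked 25 wild-type and 15 knockout cells (1.35% and 0.925%). The ratio calculation was tested on simulated data. The work used scipy 1.17.1 for intervals, scanpy 1.11.5 for Scrublet, pandas 2.3.3 and numpy 2.4.6 for tables and matplotlib 3.10.9 for figures, under Python 3.11.15.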

Additional observations from a re-analysis of the deposited data

Results flagged for a closer look

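In 3 comparisons a member stood on opposite sides of 1 in the libraries, each with an interval apart from 1, and the difference between the libraries was not tested. The share of all genes that stood so was not counted, so the number describes the members only. *Hsp90aa1* in cells under 5% RP over other cells was at 0.583 in wild-type and 1.48 in knockout cells. *Hspe1* in cells of at least 15% RP over cells of 5 to 10% RP was at 1.07 and 0.778, and in cells with at least 2% mitochondrial UMIs over cells under 1% it was at 0.812 (0.766 to 0.861) and 1.11 (1.05 to 1.18). In cells of 5 to 15% RP alone the last pair was 0.786 (0.737 to 0.838) and 0.918 (0.842 to 1.003), no longer on opposite sides. The copies of *Hsp90aa1* under 5% RP were at 1.10 (0.921 to 1.30) and 2.24 (2.07 to 2.42), with a wild-type interval that included 1.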

How the results depend on the processing

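The summed members were lower in the knockout library under all 11 alternatives, with ratios of 0.840 to 0.899. The main ratio of 0.869 moved beyond its counting interval to 0.858 without feeder collagen cells, 0.884 with RP and mitochondrial genes out of the denominator, 0.888 as a mean over cells, 0.840 with median of ratios scaling and 0.899 with the pseudogene copies added, the last chosen after seeing the data. For single members 78 of 99 values stayed within the main interval and 21 moved. *Hspa5* and *Hsph1* have no copies, so their values with copies added could not move. Other settings kept most of the same UMIs, such as 11538645 of 11639256 in wild-type cells of at least 1000 UMIs. The count of values that stayed is thus no measure of robustness. Members whose interval lay apart from 1 stayed on their side under all 11 alternatives, while *Hspa9* ranged from 0.942 to 1.05. The count of members past the fold went from 0 to 2 lower as a mean over cells, beside 11.5% of all genes lower, and to 3 lower at a limit of 0.32 on the log2 scale, beside 20.8%. Under 5% RP over other cells, the wild-type ratio of 0.528 moved to 0.422 at 2000 UMIs, where 7 cells remained, and to 0.571 without feeder collagen cells. The knockout ratio of 0.955 moved to 0.993 at 1000 UMIs, 0.826 with all barcodes and 0.992 with at most 10% mitochondrial UMIs. It was 0.907 with the other denominator and 0.880 as a mean over cells. At 2000 UMIs it crossed 1 to 1.05 (0.998 to 1.10), an interval that included 1, so no direction is drawn from it. At least 15% over 5 to 10% RP moved from 1.14 to 1.12 without feeder collagen cells in the wild-type, from 1.14 and 1.19 to 1.24 and 1.28 with the other denominator, and to 1.11 and 1.13 as a mean over cells. At least 2% over under 1% mitochondrial UMIs moved from 0.884 in the wild-type to 0.861 with all barcodes and 0.866 without feeder collagen cells, and from 0.884 and 0.839 to 0.847 and 0.795 with the other denominator, to 0.841 and 0.851 as a mean over cells and to 0.922 and 0.887 in cells of 5 to 15% RP, the last also added later. *Hspe1* over the same mitochondrial groups crossed 1 in knockout cells of 5 to 15% RP, from 1.11 to 0.918 (0.842 to 1.003). *Hspd1* under 5% RP over other cells crossed 1 in knockout cells with copies added, from 0.837 to 1.07 (0.926 to 1.24). Both new intervals included 1, so no opposite direction is drawn from them. These values of *Hspe1* and *Hspd1* were chosen after seeing the data. So were the other values of single members between groups of cells with copies added or feeder collagen cells left out. The ratio of *Cryab* went from 0.390 to 1.22 (0.746 to 1.99) without feeder collagen cells, an interval that included 1. This value was also added later. The cause of the other changes was not tested. No paired analysis was possible because each genotype is 1 library. Depth limits *Hsph1*, *Hspe1* and *Hspa9* under 5% RP in the wild-type library, which rest on 3, 16 and 16 UMIs.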
